A study of Mus musculus with 2 samples.

Results

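Mitochondrial ribosomal protein genes were taken as all annotated genes whose symbol begins with Mrpl or Mrps followed by a number and that have a protein-coding transcript, with pseudogenes left out. The rule gave 78 genes, 49 named for the large subunit (Mrpl) and 29 named for the small subunit (Mrps), of 55536 annotated genes and 21901 protein-coding genes. No measured value was used to choose them. RNA of mouse macrophages, the phagocytes that bone marrow of strain C57BL/6J gives in culture, was sequenced with a polyA plus protocol. The study has 1 group of 2 libraries, replicates 1 and 2, each made from 1 µg of RNA. Cells had 100 ng/ml lipid A for 12 h, a washout of 12 h, and then 100 ng/ml lipid A again for 120 min. Lipid A is the part of bacterial lipopolysaccharide that the TLR4 receptor complex recognises. The labels name the agent as lipid A in 1 field and lipoprotein A in others, and they name the molecule as total RNA beside the polyA plus assay. Age and sex of the animals are not given. The labels number the libraries as biological replicates 1 and 2. They give both the same donor identifier and do not mention separate animals, so part of the difference between replicates may be technical. No unstimulated or singly stimulated macrophages were analysed here, so the values describe levels in doubly exposed cells and the spread between 2 libraries, with no test of a condition.

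The mitochondrial ribosome (mitoribosome) translates the few messenger RNAs that mitochondrial DNA encodes, which code for core subunits of the respiratory chain and of ATP synthase. Its ribosomal RNAs come from mitochondrial DNA, while its proteins are encoded in the nucleus, made in the cytosol and imported. Some of these proteins descend from bacterial ribosomal proteins (bacterial type here) and others were gained by mitochondria (mitochondria-specific here). Macrophages exposed to lipopolysaccharide are known to lower their reliance on mitochondrial respiration and to raise glycolysis.

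The libraries held 45377715 expected counts in replicate 1 and 32112416 in replicate 2. Of these, 66856 counts in replicate 1 and 36435 in replicate 2 fell on the 78 genes. This was 0.147% of the counts of annotated genes in replicate 1, with an exact 95% binomial (Clopper-Pearson) interval of 0.146 to 0.149%. In replicate 2 it was 0.114% (0.112 to 0.115%), and these intervals and the floor below cover counting error only. Single members had between 192 and 2165 counts in replicate 1 and between 76 and 1057 in replicate 2, and a floor of 3 counts corresponds to 0.0661 and 0.0934 CPM (counts scaled to library size). All 8 macrophage markers examined reached 10 TPM (a level corrected for transcript length and library size) in both libraries, the lowest being Mertk at 74.98 and 60.5 TPM. Of 18 markers of other cells, 15 were under 1 TPM in both libraries and 5 had no counts at all, among them the neutrophil marker Ly6g. The exceptions were S100a9, a gene of neutrophils and monocytes, at 26.4 TPM in replicate 1 and 1.18 TPM in replicate 2, Pecam1 at 3.69 and 3.29 TPM, and Cdh5 at 0.49 and 1.03 TPM.

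The promoters of the members are shown first because a set of short motifs recurred in them. RefSeq windows of 300 bases, 250 before and 50 after an annotated start on GRCm38.p6 (mm10), were available for 69 of the 78 members and gave 75 windows. The motifs searched on both strands were CCGGAAG, bound by ETS factors such as GABP, GCGC and TGCGC with any 1 base between them, bound by NRF1, and AAGATGGC, bound by YY1. Factors of these kinds are known as regulators of nuclear genes for mitochondrial proteins. The 6 windows below were chosen after the matches were seen: Mrps21 and Mrpl52 are the members with the highest levels, Mrps18a holds both an ETS and a YY1 match, Mrpl45 holds 3 NRF1 matches, Mrpl32 is 1 of the few members higher in replicate 2, and Mrps11 shares its upstream region with Mrpl46. Capitals mark the matches to these 3 motifs on either strand.
Mrps21: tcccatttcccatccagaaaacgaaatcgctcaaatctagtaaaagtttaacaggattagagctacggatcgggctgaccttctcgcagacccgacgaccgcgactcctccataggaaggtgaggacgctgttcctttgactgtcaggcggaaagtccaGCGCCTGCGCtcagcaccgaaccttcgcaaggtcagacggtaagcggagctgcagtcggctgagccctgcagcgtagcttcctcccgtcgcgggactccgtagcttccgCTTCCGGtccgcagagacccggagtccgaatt
Mrpl52: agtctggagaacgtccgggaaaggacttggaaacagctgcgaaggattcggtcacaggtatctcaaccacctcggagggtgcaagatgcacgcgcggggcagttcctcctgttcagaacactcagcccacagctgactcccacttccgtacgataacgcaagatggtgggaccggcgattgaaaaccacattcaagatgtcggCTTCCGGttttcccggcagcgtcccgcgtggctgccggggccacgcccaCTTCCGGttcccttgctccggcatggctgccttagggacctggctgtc
Mrps18a: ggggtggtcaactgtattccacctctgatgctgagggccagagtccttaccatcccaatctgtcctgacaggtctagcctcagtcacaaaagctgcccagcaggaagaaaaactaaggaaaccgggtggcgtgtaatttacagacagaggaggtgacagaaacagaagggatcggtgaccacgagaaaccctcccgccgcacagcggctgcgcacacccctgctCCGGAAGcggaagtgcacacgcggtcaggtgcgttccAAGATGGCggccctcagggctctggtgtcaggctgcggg
Mrpl45: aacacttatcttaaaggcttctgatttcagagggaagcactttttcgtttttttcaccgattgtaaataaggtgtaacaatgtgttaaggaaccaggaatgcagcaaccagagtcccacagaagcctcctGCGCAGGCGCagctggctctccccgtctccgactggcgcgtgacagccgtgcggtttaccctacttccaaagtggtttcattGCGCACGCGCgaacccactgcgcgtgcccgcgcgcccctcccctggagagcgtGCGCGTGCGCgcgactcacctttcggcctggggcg
Mrpl32: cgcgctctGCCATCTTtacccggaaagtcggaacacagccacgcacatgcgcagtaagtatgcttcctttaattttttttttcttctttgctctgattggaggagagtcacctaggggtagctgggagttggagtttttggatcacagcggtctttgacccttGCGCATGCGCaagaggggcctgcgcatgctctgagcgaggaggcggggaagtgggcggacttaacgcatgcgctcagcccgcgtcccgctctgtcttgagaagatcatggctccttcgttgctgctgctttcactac
Mrps11: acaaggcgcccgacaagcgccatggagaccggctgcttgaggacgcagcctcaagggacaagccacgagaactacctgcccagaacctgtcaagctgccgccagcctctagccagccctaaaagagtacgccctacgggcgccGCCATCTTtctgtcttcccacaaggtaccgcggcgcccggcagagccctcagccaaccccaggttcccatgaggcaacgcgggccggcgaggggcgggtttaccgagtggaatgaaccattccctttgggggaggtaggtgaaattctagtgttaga
The windows lie at chr3:95871465-95871764 (Mrps21, minus strand), chr14:54426659-54426958 (Mrpl52, plus strand), chr17:46110754-46111053 (Mrps18a, plus strand). The others lie at chr11:97315466-97315765 (Mrpl45, plus strand), chr13:14612988-14613287 (Mrpl32, minus strand), chr7:78782881-78783180 (Mrps11, plus strand). Counting the first transcribed base as 0, the NRF1 match of Mrps21 begins at -91 and its ETS match at 18, downstream of the start. The ETS matches of Mrpl52 begin at -47 and 2. In Mrps18a the ETS match begins at -26 and the YY1 match at 11.

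ETS matches were present in 26 of the 75 windows (34.7%), against 20.97% of 6261 promoters of protein-coding genes at 10 TPM in both libraries and 8.86% of all 32851 promoters. NRF1 matches were in 13 windows (17.3%), against 11.2% of the promoters at 10 TPM and 4.60% of all. YY1 matches were in 12 windows (16.0%), against 5.27% and 2.75%. At least 1 of the 3 motifs was found in 43 windows (57.3%), against 33.0% of promoters at 10 TPM and 14.7% of all. Among motifs that mark many other promoters, the GC box was less frequent than in the promoters at 10 TPM. It was more frequent than in all promoters. The shares of the other motifs rest on few windows and lay near those of the promoters at 10 TPM. The GC box (GGGCGG) was in 39 windows (52.0%), against 64.1% of promoters at 10 TPM and 35.7% of all. The TATA box (TATAAA) was in 5 (6.67%), against 7.09% and 13.6%. The cyclic AMP response element (TGACGTCA) was in 2 windows (2.67%), against 3.15% and 1.79%, and the E-box (CACGTG) in 7 (9.33%), against 10.99% and 7.15%. The median position of an ETS match was -17 and that of an NRF1 match -43.5, while the YY1 matches had a median position of 15, inside the transcript. In the printed windows no match overlaps another. A match is a string of letters and not a measured binding site, and the absence of a match says only that these letters are missing from the window.

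**Figure D1:**
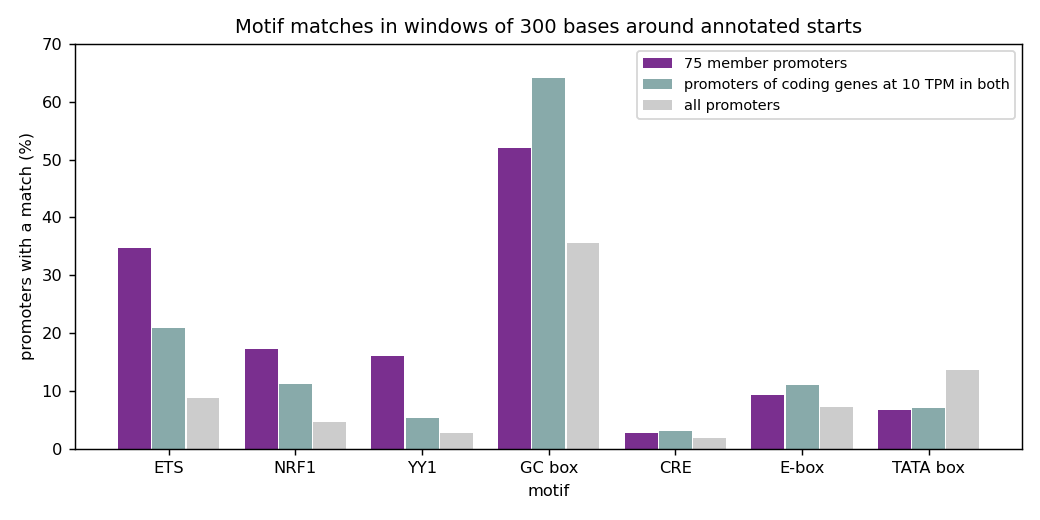
Share of promoter windows of 300 bases with a match to each motif, in percent, for the 75 windows of the members, for promoters of protein-coding genes at 10 TPM in both libraries and for all promoters. The ETS, NRF1 and YY1 bars of the members stand at 34.7%, 17.3% and 16.0%, above both other bars, and the GC box bar of the members lies below that of the genes at 10 TPM.

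Members with an ETS match had median levels of 38.9 TPM in replicate 1 and 30.1 TPM in replicate 2 (26 genes), and members without one had 31.0 and 23.6 TPM (43 genes). For NRF1 the medians lay closer together, with 35.5 and 28.4 TPM in members with a match (13 genes) and 34.5 and 26.9 TPM in those without (56 genes). The 12 members with a YY1 match had lower medians of 31.3 and 18.6 TPM, against 37.0 and 28.0 TPM in the 57 without. These are descriptions of levels within each library, and genes are not replicates.

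Transcripts of the mitoribosome were present throughout. Every one of the 78 members was at 5 TPM or more in both libraries, and 67 reached 10 TPM in both, a level that 27.4% of protein-coding genes reached. The median over members was 33.1 TPM in replicate 1 and 26.7 TPM in replicate 2. The median of the mean of both was 31.8 TPM, against 18.2 TPM over the 9763 protein-coding genes at 1 TPM in both libraries. Levels were not equal among proteins that end up in the same particle: the 10th and 90th percentiles of the mean lay at 10.5 and 63.5 TPM, a 6.05-fold span. The order of the members was close to the same in both libraries, with Spearman's rho of 0.87 over 78 genes on the TPM scale, where both libraries share gene lengths and annotation.

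**Figure D2:**
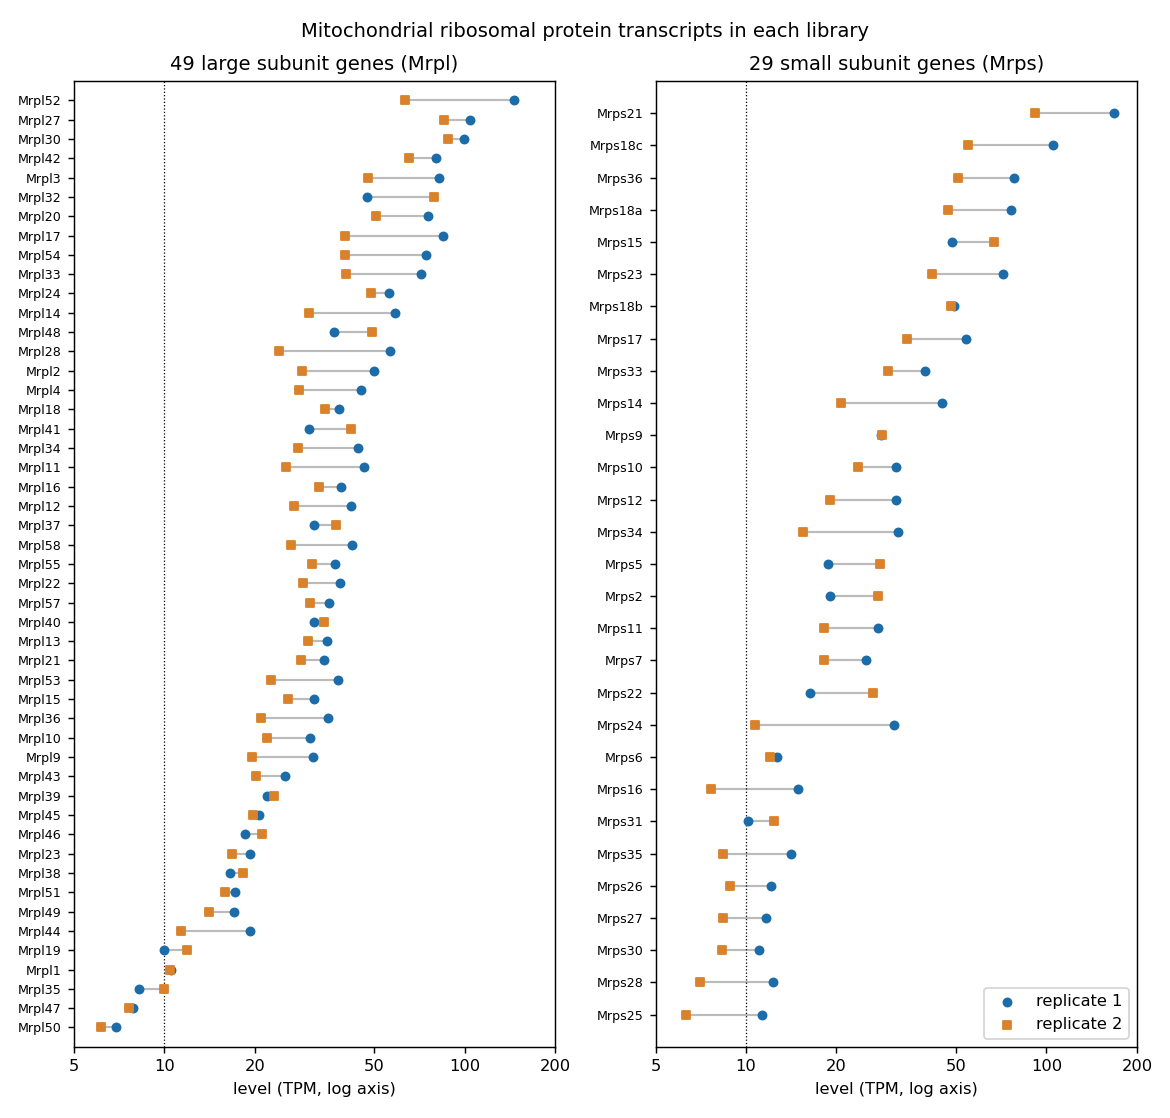
Level of each member in TPM on a log axis, replicate 1 as circles and replicate 2 as squares joined by a line, with genes ordered by their mean and a dotted line at 10 TPM. Most circles lie to the right of their squares, and Mrpl32, Mrps15 and Mrps22 are among the members with the opposite order.

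Mrps21, a small subunit protein with a bacterial counterpart, had the highest level of all members (ENSMUSG00000054312.6, chromosome 3, 95862634 to 95871519, minus strand), at 167 TPM in replicate 1 and 91.7 TPM in replicate 2. Mrpl52, a large subunit protein found only in mitochondria (ENSMUSG00000010406.12, chromosome 14, 54426909 to 54429756, plus strand), had 146 and 63.5 TPM. Both were higher in replicate 1. Next came the large subunit proteins Mrpl27, with 104 and 85.5 TPM, and Mrpl30, with 99.1 and 87.8 TPM. Values of Mrps21 and Mrpl52 overlapped across the libraries, as did those of Mrpl27 and Mrpl30. Mrps18c, the counterpart of bacterial S18, had 105 and 54.6 TPM. It is 1 of 3 genes of the S18 family, whose other products take other places in the ribosome, and those 2 genes were lower within each library. Mrps18a had 76.0 and 47.2 TPM, and Mrps18b had 49.2 and 48.1 TPM. Both are counted here as mitochondria-specific although they belong to the S18 family. Mrpl42 had 80.5 and 65.0 TPM, and Mrpl3, which lies near the catalytic centre in bacteria, had 82.2 and 47.8 TPM.

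Mrps36 had 78.1 and 50.7 TPM. Its product is known today as a subunit of the oxoglutarate dehydrogenase complex rather than of the ribosome, and it is counted here by its name. Mrps15 had 48.6 and 67.0 TPM and Mrpl32 had 47.4 and 79.0 TPM, both higher in replicate 2. Mrps23, a mitochondria-specific protein, had 71.4 and 41.5 TPM.

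At the low end stood Mrpl50, a mitochondria-specific protein of the large subunit, with 6.88 and 6.15 TPM, and Mrpl47, the counterpart of bacterial L29, with 7.88 and 7.64 TPM. Mrpl35 had 8.24 and 9.94 TPM and Mrpl1 had 10.6 and 10.5 TPM. These 4 kept the same order in both libraries, and their values did not overlap. In the small subunit the lowest were Mrps25 with 11.3 and 6.30 TPM, Mrps28 with 12.3 and 7.04 TPM, Mrps30 with 11.0 and 8.32 TPM and Mrps27 with 11.6 and 8.41 TPM. Mrps30 is placed in the large subunit in structures despite its name, and Mrps18a is too.

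Members with named tasks were spread across this range. The stalk that recruits translation factors is built from Mrpl10, Mrpl11 and Mrpl12, at 30.6, 46.2 and 42.0 TPM in replicate 1 and 22.1, 25.3 and 26.96 TPM in replicate 2. The order of the 3 was not the same in the libraries. At the exit of the peptide tunnel, Mrpl24 stood at 56.1 and 48.8 TPM, Mrpl23 at 19.4 and 16.8 TPM, and Mrpl45, which anchors the ribosome to the inner membrane, at 20.7 and 19.8 TPM. Mrps12, at the decoding centre, had 31.5 and 19.0 TPM. Mrpl58, a peptidyl-tRNA hydrolase that rescues stalled ribosomes and is part of the large subunit, had 42.0 and 26.4 TPM. Mrpl44, which carries a fold of the RNase III family, had 19.3 and 11.35 TPM.

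The large subunit genes were higher than the small subunit genes by name. Of the 49 Mrpl genes 45 reached 10 TPM in both libraries, with medians of 36.6 and 28.1 TPM, and of the 29 Mrps genes 22 did, with medians of 28.1 and 20.8 TPM. The difference of the medians was 0.53 on the log2(TPM + 1) scale. It was 0.37 in replicate 1 alone and 0.42 in replicate 2 alone. With protein-coding transcripts alone, a setting chosen after seeing the data, it was 0.43. Bacterial-type members (46 genes) had medians of 37.6 and 27.9 TPM and mitochondria-specific members (31 genes) 25.1 and 22.6 TPM, a difference of 0.52. This difference was 0.29 without replicate 1 and, in a setting chosen after seeing the data, 0.33 with protein-coding transcripts alone. The 10 mitochondria-specific proteins of the small subunit had the lowest medians, 15.2 and 13.9 TPM, and the 30 bacterial-type proteins of the large subunit the highest, 40.3 and 28.7 TPM. Longer transcripts had lower levels, with Spearman's rho of -0.68 over the 78 members and -0.26 over 5990 protein-coding genes at 10 TPM. TPM is itself divided by length, so part of this relation may be built in. The 5990 genes were cut at 10 TPM and the members were not, so the 2 values are not alike. The bacterial-type members had a median length of 968 bases and the mitochondria-specific members 1199 bases, and the part of length in the difference was not tested.

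**Figure D3:**
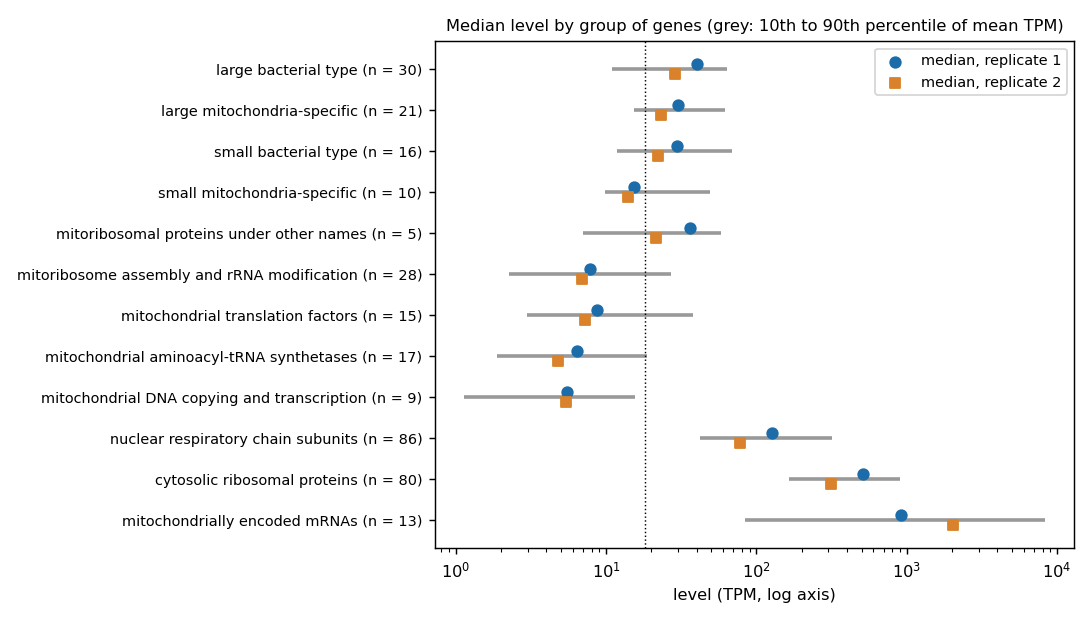
Median level in TPM on a log axis for the members by subunit and type and for other gene groups, replicate 1 as circles and replicate 2 as squares, with grey bars from the 10th to the 90th percentile of the mean TPM and a dotted line at 18.2 TPM, the median of protein-coding genes at 1 TPM. The members lie above the assembly factors, translation factors and synthetases and below the respiratory chain, cytosolic ribosomal and mitochondrially encoded groups.

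Other proteins of the mitoribosome carry names outside the Mrp series. Of 5 of them, Chchd1 had 72.9 and 46.9 TPM, Aurkaip1 65.7 and 43.4 TPM and Dap3 36.0 and 21.4 TPM, while Ptcd3 had 8.78 and 15.1 TPM and Gadd45gip1 4.75 and 2.68 TPM. Genes that assemble the mitoribosome or modify its RNA were lower than its proteins: 7 of 28 reached 10 TPM in both libraries, with medians of 7.78 and 6.89 TPM. The highest were Ndufab1, an acyl carrier protein that also serves the respiratory chain, at 80.5 and 68.6 TPM, the assembly factor Mpv17l2 at 48.8 and 32.4 TPM, and the small subunit maturation factor Rbfa at 48.9 and 29.7 TPM. The lowest, Mettl15 and Ybey, were under 1 TPM. Of 15 mitochondrial translation factors and regulators 7 reached 10 TPM, with the RNA-binding protein Slirp at 111 and 39.1 TPM, the elongation factor Tufm at 47.8 and 38.6 TPM and the elongation factor Gfm1 at 25.95 and 32.8 TPM. Mtfmt, which formylates the initiator tRNA, had 2.51 and 2.08 TPM, and Pdf, which removes the formyl group, 2.88 and 2.49 TPM.

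Mitochondrial aminoacyl-tRNA synthetases were the lowest of the translation groups, with 3 of 17 at 10 TPM and medians of 6.37 and 4.75 TPM. Lars2 stood apart at 237 and 82.1 TPM, and Mars2 was lowest with 0.27 and 0.23 TPM. Of 9 genes for copying and transcribing mitochondrial DNA, the single-strand binding protein gene Ssbp1 alone reached 10 TPM in both, at 25.2 and 24.2 TPM, and Tfam had 7.57 and 18.8 TPM. The members were in turn lower than the nuclear subunits of the respiratory chain, with medians of 126 and 77.4 TPM over 86 genes, and than the cytosolic ribosomal proteins, with 514 and 315 TPM over 80 genes. The 13 mitochondrially encoded messenger RNAs, which the mitoribosome translates, had medians of 913 and 2030 TPM.

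The libraries were next compared with each other, as the ratio of replicate 1 over replicate 2 of expected counts with TMM-scaled library sizes, in 12552 genes with a mean count of at least 10. All 78 members were among them. Of the members, 62 were higher in replicate 1 and 16 in replicate 2, whereas 51.2% of all tested genes were higher in replicate 1. The median log2 ratio was 0.37 for members and 0.02 for all tested genes. Past a fold of 1.5 stood 28 members higher in replicate 1, against 16.4% of tested genes, and 2 higher in replicate 2, against 13.8%. In either direction this made 30 of 78 (38.5%), against 30.3% of tested genes. Past a fold of 2 stood 5 of 78 members, against 11.3% of tested genes. Among 9759 tested protein-coding genes at 1 TPM in both libraries, 23.9% were past 1.5-fold. Past 2-fold were 600 of these 9759, a share close to that of the members. With 1 library on each side no test between them was possible, and fewer cells of a type and less RNA per cell cannot be told apart in such data.

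Mrps24, the counterpart of bacterial S3, differed most, with 642 counts in replicate 1 and 164 in replicate 2, or 31.0 and 10.7 TPM. It was 2.63-fold higher in replicate 1 (exact 95% interval for counting error 2.21 to 3.14). Mrpl28 had 1383 and 406 counts and was 2.29-fold higher, Mrps14 had 925 and 279 counts and was 2.23-fold higher, and Mrpl52 had 711 and 215 counts and was 2.22-fold higher. The lower ends of the intervals of these last 3 lay between 1.91 and 2.05. Mrps34 followed at 2.03-fold, Mrpl14 at 1.98-fold and Mrps16 at 1.91-fold. Mrps18c, Mrpl54, Mrpl33, Mrps28 and Mrpl2 were 1.69-fold to 1.84-fold higher in replicate 1.

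The 2 members past 1.5-fold in the other direction were Mrps22, a mitochondria-specific protein of the small subunit, and Mrpl32, whose precursor is a known substrate of a mitochondrial protease. Mrps22 had 468 counts in replicate 1 and 518 in replicate 2 and was 1.65-fold higher in replicate 2 after scaling. Mrpl32 had 940 and 971 counts and was 1.54-fold higher in replicate 2. Members with the highest levels ranged widely, from 2.22-fold for Mrpl52 and 1.66-fold for Mrps21 to 1.27-fold for Mrpl27 and 1.24-fold for Mrpl30, all higher in replicate 1.

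Gene groups that work with the members did not all stand on the same side. The median log2 ratio was 0.82 for the nuclear respiratory chain subunits, 0.59 for the cytosolic ribosomal proteins, 0.68 for the 5 mitoribosomal proteins under other names and 0.46 for the assembly list. It was 0.22 for the synthetases, near 0 at -0.01 for the translation factors and -0.96 for the mitochondrially encoded messenger RNAs. Of those 13 messenger RNAs 11 were past 1.5-fold higher in replicate 2, the opposite side from most transcripts of the members. The other 2 were higher in replicate 1, mt-Nd3 with a log2 ratio of 0.81 and mt-Co3 with 0.40. Counts within this group were uneven, such as 284 and 1081 for mt-Co2 beside 224785 and 379096 for mt-Co1. The 2 mitochondrial ribosomal RNAs had a median of -0.13.

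The ratio was lower for longer transcripts. Among the 12 members under 700 bases the median log2 ratio was 0.72 and all 12 were higher in replicate 1. The 26 members of 700 to 1000 bases had a median of 0.56, the 21 of 1000 to 1500 bases 0.22, and the 19 of 1500 bases and over 0.15. Protein-coding genes at 10 TPM in the same classes had medians of 0.60, 0.41, 0.18 and -0.08, so they showed the same order. Members were shorter than these genes, with a median length of 1026 bases against 2263 bases. Spearman's rho between length and log2 ratio was -0.41 over the 78 members and -0.37 over the 5990 genes, and between the GC percentage of the transcript and the ratio it was 0.36 and 0.30. After subtracting the median of the length class, a step chosen after seeing the data, the members' median was 0.13, with 49 genes above and 28 below their class. Past 1.5-fold from the class median stood 8 members above and 4 below, against the 28 and 2 before this step. The parts of length, GC content and the difference in S100a9 in these ratios were not tested.

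**Figure D4:**
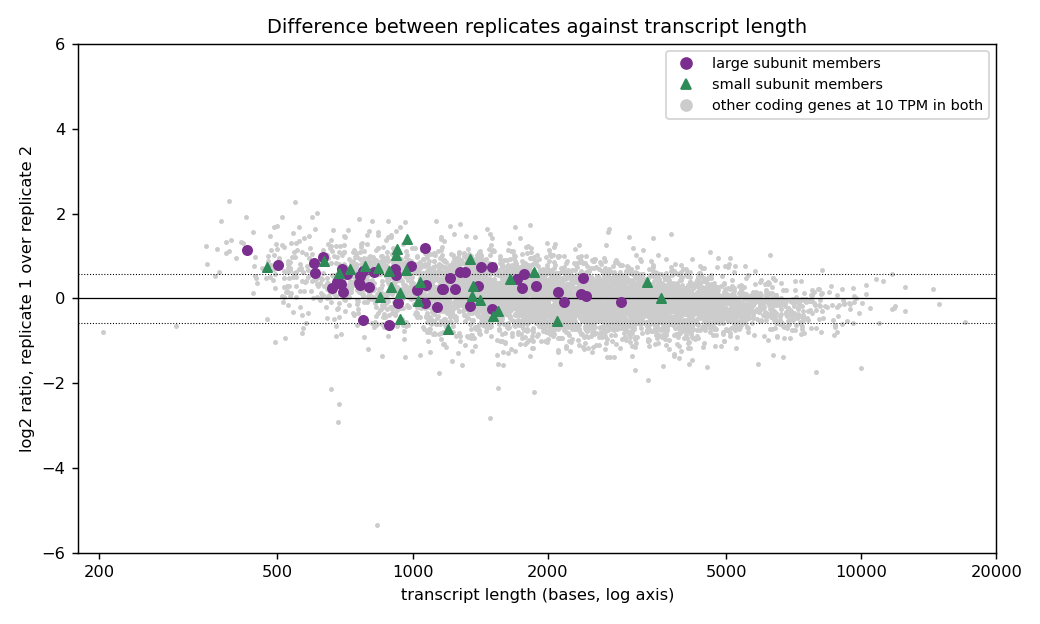
Log2 ratio of replicate 1 over replicate 2 against transcript length in bases (log axis), with large subunit members as purple circles, small subunit members as green triangles and other protein-coding genes at 10 TPM in both libraries in grey, and dotted lines at 1.5-fold. Short transcripts lie mostly above 0, and members follow the grey cloud, with a median of 0.72 under 700 bases and 0.15 from 1500 bases.

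How the expression of each gene was divided among its transcripts was read from the deposited percent per transcript. The members had a median of 4 annotated transcripts and at most 11. In 46 of 78 members the leading transcript held under 90% in at least 1 library, against 64.9% of protein-coding genes at 10 TPM. The leading transcript was the same in both libraries for 72 members, which was not counted for other genes.

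For 10 members (12.8%) the leading transcript is not annotated as protein coding in GENCODE M21, against 5.16% of protein-coding genes at 10 TPM. These 10 were singled out after their values were seen. The leading transcript of Mrpl3, Mrpl32 and Mrps14 is annotated as a target of nonsense-mediated decay, a pathway that removes messenger RNAs with early stop codons. That of Mrps5, Mrps26 and Mrpl57 is annotated as retaining an intron, and that of Mrpl15, Mrpl47, Mrps16 and Mrps35 as a processed transcript without a reading frame. Mrps26 had 92.3% of its abundance in replicate 1 and 88.9% in replicate 2 in such a transcript, Mrpl57 had 89.3 and 94.2%, Mrps14 had 83.7 and 81.8%, and Mrpl32 had 80.2 and 86.7%. In Mrps35 it was 82.6 and 65.2%, and in Mrps16 69.4 and 69.3%. These are assignments of reads between overlapping transcripts by the authors' quantification. The leading transcripts concerned are between 451 and 1394 bases long. The annotation pairs the one of Mrpl3 with a RefSeq messenger RNA and the one of Mrps16 with a RefSeq non-coding RNA, and the other 8 with no RefSeq entry.

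Summed over all such transcripts, 10 of the 78 members had over 50% of their abundance outside protein-coding transcripts in both libraries, against 3.91% of protein-coding genes at 10 TPM. These were the members above without Mrpl47, which had 46.2 and 66.1%, and with Mrpl51, which had 54.7 and 61.6%. In the second quantification 14 members did, against 4.97% of those genes: the same 10 and Mrpl19, Mrpl35, Mrps25 and Mrpl47. Mrpl32 had 47.4 and 79.0 TPM as a gene and 3.68 and 5.14 TPM in its protein-coding transcript. Mrps14 had 44.9 and 20.8 TPM as a gene and 7.33 and 3.77 TPM in protein-coding transcripts, and Mrpl3 had 82.2 and 47.8 TPM and 16.4 and 10.9 TPM. In 50 members under 10% lay outside protein-coding transcripts in both libraries, a count not made for other genes. Counting protein-coding transcripts alone, 60 members reached 10 TPM in both libraries, against 25.5% of protein-coding genes, and the medians were 29.1 and 21.9 TPM.

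The lowest shares of a leading transcript were found in Mrps5, with 23.7% in replicate 1 and 43.3% in replicate 2, and in Mrpl24, with 35.3 and 29.6%. Several others differed between the libraries. In Mrps25 the leading protein-coding transcript held 37.8% in replicate 1 and 71.3% in replicate 2, and in Mrpl35 it held 74.3 and 37.7%. Mrps25 had close to equal scaled counts in both, 1.00-fold, but 11.3 and 6.30 TPM. Mrps23 had 41.2 and 61.7%, Mrpl17 65.9 and 44.2%, and Mrpl47 46.2 and 66.1%. Mrpl30, Mrps10, Mrpl51, Mrpl55 and Mrpl15 had shares between 38.4 and 53.4%. In the second quantification Mrpl35 had 36.4 and 26.8% and Mrpl47 60.5 and 71.4%, smaller differences than in the first. There Mrps25 had 24.1 and 49.2%, Mrps23 36.9 and 60.0% and Mrpl17 64.1 and 41.8%. No test of these shares was possible with 1 library on each side.

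**Figure D5:**
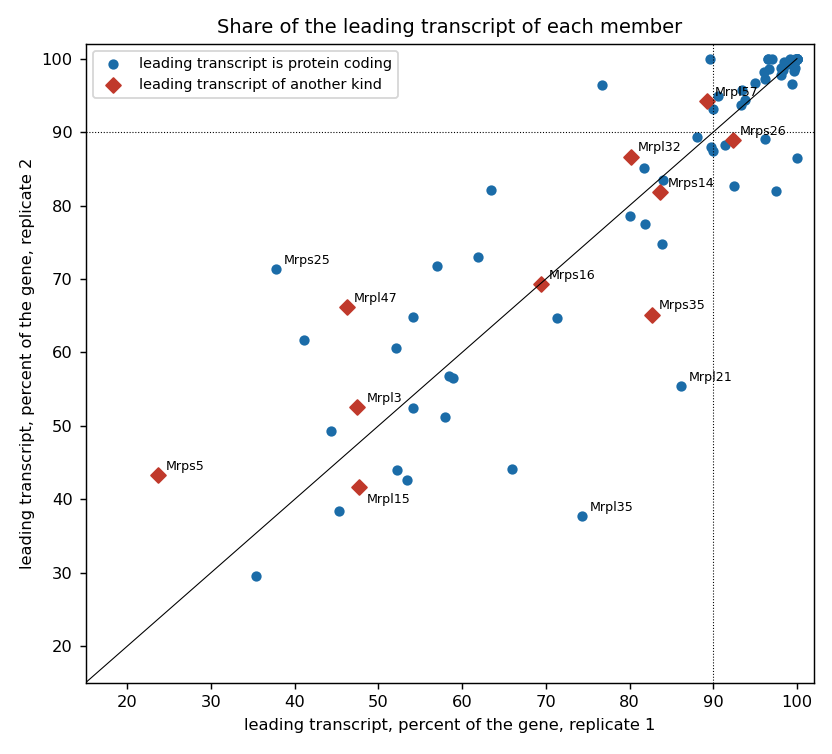
Percent of each member's abundance in its leading transcript, replicate 1 on the horizontal and replicate 2 on the vertical axis, with a line of equality and dotted lines at 90%. Red diamonds are the 10 members whose leading transcript is not annotated as protein coding, and Mrps25 and Mrpl35 lie far from the line on opposite sides. In the second quantification, not drawn here, the transcript of Mrpl35 held 36.4 and 26.8%.

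A second set of deposited values, made directly from reads, put 1 of the 78 members at least 1.5-fold from the first in either library. It was Mrpl23, a protein at the tunnel exit, with 19.4 and 16.8 TPM in the first and 4.49 and 5.39 TPM in the second, while 2.85% of protein-coding genes at 10 TPM differed this much. The pseudogene Mrpl23-ps1 moved the other way, with 38.7 and 23.8 TPM in the first and 49.8 and 31.8 TPM in the second. The summed counts of gene and pseudogene were 615 and 307 in the first and 661 and 325 in the second, so the level of Mrpl23 by itself is uncertain. The other 4 pseudogene rows named after members had at most 2.27 counts.

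The members lay on 17 chromosomes, with 11 on chromosome 11 and 8 on chromosome 17. Their starts were often close to the start of another gene. In 33 members (42.3%) a protein-coding gene on the opposite strand had its start within 1000 bases, against 18.3% of protein-coding genes at 10 TPM and 10.9% of all protein-coding genes. Several partners serve mitochondria too. Distances here run from start to start, and some pairs overlap. Mrpl36 starts 29 bases from Ndufs6, a subunit of respiratory complex I. The start of Mrpl47 lies 615 bases from that of Ndufb5, another subunit of that complex, and their exons share 616 bases. Mrps12 starts 172 bases from Sars2, the mitochondrial seryl-tRNA synthetase. Mrpl43 starts 779 bases from Twnk, the mitochondrial DNA helicase, and Mrps11 and Mrpl46, both members, start 412 bases apart. Others lie beside genes of other functions, such as Mrpl32, 75 bases from the proteasome subunit Psma2, and Mrpl49, 59 bases from Fau, which encodes a protein of the cytosolic ribosome.

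Partners did not share one level. Of the 33, 15 reached 10 TPM in both libraries and 6 were under 1 TPM in both. Psma2 had 78.5 and 78.1 TPM beside Mrpl32, and Ndufs6 had 88.4 and 64.9 TPM beside Mrpl36 with 35.0 and 21.1 TPM. Mrps18c, at 105 and 54.6 TPM, starts 29 bases from the helicase gene Helq, at 1.67 and 0.89 TPM.

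Exons of 33 members share bases with another annotated gene, 28 of them with a gene on the opposite strand and 8 with one on the same strand. Whether reads were counted by strand is unknown here, so the levels of these members may hold reads of the other gene. In 9 members at least 20% of the exon bases are shared. Overlaps were counted for the members only, so whether these counts are high for genes in general is not known here. The largest share is that of Mrpl53 with Gm42688, at 88.0% of its exon bases, where Gm42688 had 0.47 and 0.35 TPM and Mrpl53 37.9 and 22.6 TPM. Mrps25 shares 69.8% with Nr2c2, at 3.37 and 3.47 TPM, and Mrps34 shares 63.4% with Mapk8ip3, at 16.4 and 12.2 TPM. Some partners with smaller overlaps were higher than the member. Mrpl47, at 7.88 and 7.64 TPM, shares 13.9% with Ndufb5, at 77.1 and 40.8 TPM. Mrpl18, at 38.2 and 34.25 TPM, shares 10.1% with Tcp1, at 103 and 101 TPM.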

How the data were processed

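PolyA plus RNA-seq was deposited for 2 libraries of 1 group. Per the deposited notes, values refer to mouse build mm10 and GENCODE M21. The deposited gene table holds expected counts, TPM and FPKM, and the deposited transcript table adds the percent of each gene held by a transcript. A second deposited transcript table of estimated counts and TPM, made directly from reads, was summed to genes, where 86 annotated genes had no value. For the aligner, the quantification programs and strand use, names or settings were not given in the sources used here. No label gives a batch. Rows of tRNAs, spike-ins and phiX were left out (0.0788% and 0.0771% of all counts). The fold between the libraries used expected counts unrounded, a prior count of 0.5, TMM factors from edgeR 4.0.16 (DESeq2 1.42.0 as an alternative) and a mean count of at least 10. The ratio's calculation was checked on simulated data. With 1 group no test between conditions was made. Quantifications were compared with 0.1 TPM added, levels as log2(TPM + 1) computed from the deposited TPM. Lengths are the mean of the deposited gene lengths, and chromosomes, exons and transcript classes come from GENCODE M21.

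The rule for members used no measured value, but members, roles and gene lists were set with earlier results of these data known. Named are the 6 highest and 4 lowest members of each subunit, up to 12 members past 1.5-fold, up to 12 with the lowest leading transcript, members of the stalk, exit tunnel, decoding and termination, and the ends of each list. Overlap partners, Mrps22, Mrpl32 in the ratios and members with leading non-coding transcripts were chosen after their values were seen. R 4.3.3 and Python 3.11.15 were used.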

Additional observations from a re-analysis of the deposited data

How the results depend on the processing

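Of the 54 alternatives computed, 38 stayed close to the main value. Close meant within 1 SD of the replicates, the counting interval of the summed counts (for the ratio) or 1.5 times (for counts of members). Part of this closeness was fixed in advance. Leaving out a replicate cannot take the share of counts past 1 SD, and no member fell below a mean count of 100. FPKM is TPM times 1 factor in each library, so it leaves differences of medians nearly unchanged. Counts and shares cannot change sign, and the median level had little room to. The differences of medians and the median log2 ratio could, and none did. The median level of members, 4.995 on the log2(TPM + 1) scale, was 4.45 with FPKM, 4.77 with the second quantification and, chosen after seeing the data, 4.62 with protein-coding transcripts alone (4.79 to 5.09 leaving out a replicate). The difference of large and small subunit medians, 0.53, was 0.46 with the second quantification, 0.43 with protein-coding transcripts alone and 0.37 to 0.42 leaving out a replicate. For bacterial-type and mitochondria-specific members, 0.52 became 0.33 with protein-coding transcripts alone and 0.29 to 0.56 leaving out a replicate. The median log2 ratio between replicates, 0.37, was 0.35 with DESeq2 size factors, 0.44 with library totals, 0.41 with deposited TPM and 0.13 after subtracting the median of the length class. At a fold of 2 the members apart were 5 instead of 30, at a share of 80% the members with a divided leading transcript were 30 instead of 46, and with Mrpl23 and its pseudogene summed no member differed between quantifications (0 instead of 1). The lower median level with FPKM is a change of unit. The cause of the other shifts was not tested. Leaving out a replicate gave 68 to 74 members at 10 TPM, a share of counts of 0.114 to 0.147%, 39 to 42 members with a divided leading transcript and 1 member apart between quantifications, and it leaves no value for the ratio. No paired analysis was possible because there is only 1 group. Depth limits precision most for the member with the fewest counts, Mrps28, with 192 in replicate 1 and 76 in replicate 2.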
